A study of Mus musculus with 6 samples.

Results

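Probes for immunoglobulin transcripts were examined in microglia of *Bhlhe41*-deficient mice and their heterozygous controls. A probe was a member if it was not a control and its target was an Ensembl mouse transcript numbered from 103301 to 103560, both included, where the number is the end of the transcript's identifier. This stretch of numbers holds the gene models of immunoglobulin V (variable) and C (constant) genes. It took in 146 of the 56605 probes on the array, on 164 spots and on 139 of its 47776 distinct targets. The identity of a member rests on its number alone. The RefSeq gene table on GRCm38.p6 lists 395 immunoglobulin segments and constant regions, of which 0 carry a transcript accession, so 0 of the 146 probes could be paired with a gene name and they are called here by transcript number. The array was designed on mm9, and no coordinates are given. The members were chosen on values of this same contrast, the lower signal of such probes in B41KO arrays, so their values are a description and carry no test.

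The samples were 3 pools of microglia from young *Bhlhe41* dTomato-Cre/+ mice (B41HET, the controls) and 3 pools from young *Bhlhe41* dTomato-Cre/dTomato-Cre mice (B41KO). Live CD45lo CD11b+ Cx3cr1+ cells were sorted from brain after enrichment on Percoll. The labels speak of 3 mice in each genotype, whereas the methods describe each sample as a pool of several mice. The samples are taken as pools here, so n and the SD count and describe samples, not single mice. In both genotypes the *Bhlhe41* promoter drives dTomato and Cre from a cassette placed ahead of the start codon, which ends translation of Bhlhe41, so the controls carry 1 disrupted allele and no wild-type sample entered the comparison. Each sample was hybridised in 1 colour to a SurePrint G3 Mouse array, where the brightness of a probe is the measurement.

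Immunoglobulins are built of heavy and light chains, each with a variable part encoded by 1 of many V genes and a constant part encoded by a C gene. V genes are joined to shorter segments by recombination in developing B cells, and the rearranged genes are transcribed in B cells and, at far higher levels, in plasma cells, which secrete antibody. Microglia are brain macrophages and do not recombine these loci. V genes of a family resemble each other closely, so a probe designed on 1 of them may also bind transcripts of its relatives.

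Between 70.02% and 75.45% of all probes were well above background, the scanner software's flag for a spot clearly brighter than its surroundings, and no spot was saturated on any array. All 8 microglia markers examined (among them *P2ry12*, *Tmem119*, *Sall1*, *Cx3cr1*, *Csf1r*, *Fcrls* and *Gpr34*) were well above background on all 6 arrays, as the sort calls for, and 1 of them, *Fcrls*, was called lower in B41KO. The *Bhlhe41* transcript was not called on either of its probes and was not lower in the samples labelled B41KO. Its brightest probe read 7.95, 7.87 and 7.65 (log2 signal) in the B41HET samples and 8.56, 7.84 and 8.21 in the B41KO samples, a difference of 0.38 ± 0.20 (limma SE, adjusted p = 0.3297), and the other probe read 7.86, 7.58 and 7.40 against 7.96, 7.90 and 7.96, higher on every B41KO array (0.33, adjusted p = 0.2034). The genotypes are used as labelled. On the slide, row 1 held all 3 B41HET arrays with B41KO replicate 1, and row 2 held B41KO replicates 2 and 3.

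Immunoglobulin signal was lower in the samples labelled B41KO for a subset of the probes, and similar in both genotypes for most of the others. Of the 146 probes, 36, on 35 transcripts, were called lower, 1 was called higher and 109 were not called, where a call needed an adjusted p of 0.05 or less by limma and a difference of at least 0.5 on the log2 scale. Over all 56601 probes tested, 3.34% were called lower, 1.72% were called higher and 5.07% were called either way. The rule drew on this contrast, so nothing is read from the members' share. The median difference over the members (B41KO mean minus B41HET mean, log2 signal) was -0.14, beside 0.015 over all probes, and the middle of the distribution ran from -0.72 at the lower quartile to 0.076 at the upper. The differences extended much further downward, to -5.49, than upward, to 1.12, the lowest of them at probes that reached background in B41KO. By at least 1 on this scale, 29 members were lower and 1 was higher in B41KO, and 10 were lower by at least 2.

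Values of the single arrays follow, over members chosen on this contrast, and are no separate support. The median log2 signal over the 146 probes was 5.72, 5.84 and 5.78 in the B41HET samples and 5.10, 5.07 and 5.17 in the B41KO samples. Members well above background numbered 121, 121 and 122 in B41HET and 113, 119 and 110 in B41KO. The genotypes did not overlap in either measure. Over all probes the share well above background was 73.52%, 73.27% and 72.91% in B41HET and 71.44%, 75.45% and 70.02% in B41KO, so that B41KO replicates 1 and 3 were also lower, and replicate 2 higher, over the whole array. For 52 members every B41KO array lay below every B41HET array, beside 15.2% of all probes, for 16 every B41KO array lay above, beside 14.5%, and for 78 the genotypes overlapped. In bulk RNA of this kind, fewer cells of a type and less RNA per cell cannot be told apart.

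Detection divided the members. On all 6 arrays, 104 were well above background, and on none, 19. Another 5 were well above background on all 3 B41HET arrays and on no B41KO array, 8 on all B41HET arrays and on 1 or 2 B41KO arrays, 1 on all B41KO arrays and on no B41HET array, and 9 in other patterns. Among the 104 measured everywhere, 27 were called lower and 0 higher, with a median difference of -0.13 and array medians of 6.53, 6.57 and 6.56 in B41HET against 6.21, 6.17 and 6.24 in B41KO. These 104 scattered between arrays much like other probes. Their median SD was 0.118 in B41HET and 0.141 in B41KO (n = 3 each), and over all 38226 probes well above background on 6 arrays it was 0.121 and 0.126.

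**Figure D1:**
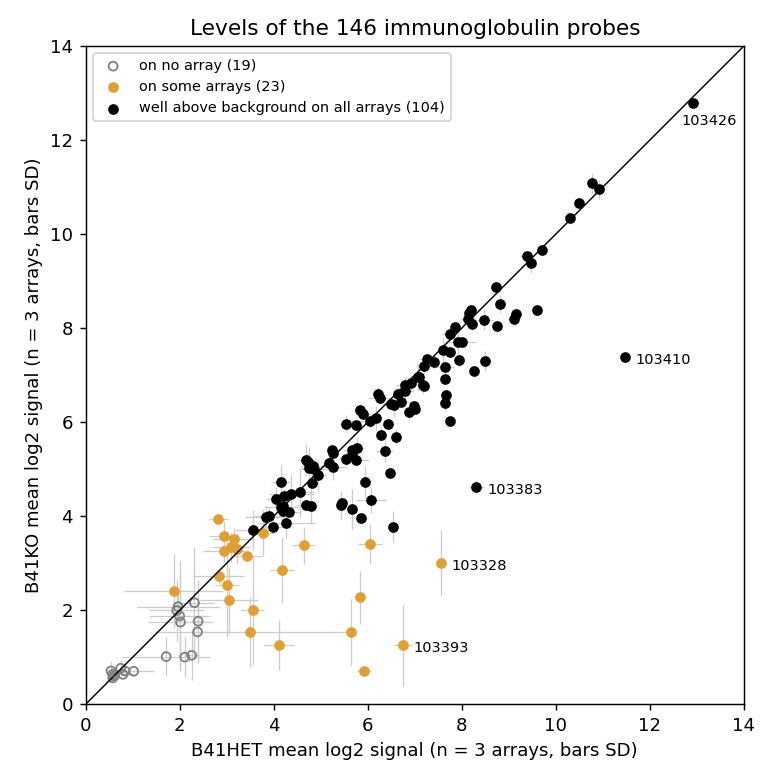
Mean log2 signal of each of the 146 immunoglobulin probes in the B41HET samples (horizontal axis) against the B41KO samples (vertical axis), with SD bars over 3 arrays each and the line of equal signal. Most points lie on the line, while a set lies below it, among them 103410 at 11.46 against 7.38 and 103393 at 6.74 against 1.26, and the colour gives whether a probe was well above background on all, some or no arrays.

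The brightest probes mostly did not differ. Of the 12 members brightest on average over the 6 arrays, 9 were not called, with differences from -0.12 to 0.31, and 3 were called lower. Brightness belongs to the probe as much as to its transcript, so the order of the probes is no order of the transcripts. The brightest, on transcript 103426 (probe A_51_P485421), read 12.73, 12.97 and 13.04 in B41HET and 12.82, 12.80 and 12.75 in B41KO, a difference of -0.12 with overlapping samples. Transcript 103301 read 10.90, 10.80 and 11.07 in B41HET and 10.97, 10.74 and 11.13 in B41KO, a difference of 0.029. The samples overlapped there too, as they did for 103396 (-0.039), 103304 (0.15) and 103469 (-0.067). For 103457 every B41KO array lay above every B41HET array, by 0.14 between the means, and the probe was not called.

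The 3 bright members called lower stood in contrast to these. The probe A_55_P2060897 on transcript 103410 read 11.56, 11.48 and 11.35 in B41HET and 7.32, 7.41 and 7.41 in B41KO. Its means were 11.46 ± 0.11 and 7.38 ± 0.055 (SD, n = 3), 16.96-fold lower in B41KO, so the gap was many times the spread within either genotype. Transcript 103341 read 9.58, 9.54 and 9.66 against 8.35, 8.38 and 8.42, 2.32-fold lower. Transcript 103356 read 9.27, 9.19 and 9.03 against 8.29, 8.19 and 8.43, 1.81-fold lower. In all 3 the 6 samples fell into separate ranges by genotype.

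The largest differences came from probes whose signal in B41KO reached background. Transcript 103393 (A_55_P2087429) read 6.85, 6.85 and 6.52 in B41HET and 2.24, 0.90 and 0.63 in B41KO. No B41KO array was well above background for it, so its fall is given as a bound, at least 14.25-fold, taken against the lowest signal well above background on each array. Transcript 103395 (A_55_P2003915) read 6.08, 5.80 and 5.86 in B41HET and 0.75, 0.62 and 0.75 in B41KO, at least 8.02-fold lower, again with no B41KO array well above background. Transcript 103303 (A_52_P538084) read 5.62, 5.60 and 5.71 against 0.72, 1.91 and 1.98, at least 6.65-fold lower. The same pattern held for 103306, whose signal of 4.40, 4.15 and 3.78 in B41HET gave a fall of at least 2.30-fold. Values this near background have no order among themselves, so the B41KO samples are not ranked for these 4 transcripts. The bounds hold for the scanner software's own background subtraction. With normexp background correction of the median signals, to which an offset of 50 is added, the differences were 2.78-fold for 103393, 2.14-fold for 103395 and 1.78-fold for 103303, under those bounds.

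For 4 further members called lower, background was reached on some B41KO arrays only. Transcript 103328 (A_52_P560578) read 7.41, 7.61 and 7.62 in B41HET and 2.76, 2.44 and 3.80 in B41KO, where only replicate 3 was well above background, and with normexp its fall was 3.64-fold. Transcript 103394 read 5.70, 5.91 and 5.90 against 2.26, 2.85 and 1.71, with 1 B41KO array well above background, and 103540 read 6.33, 5.83 and 5.98 against 3.89, 3.10 and 3.24, with 2. No fold is given for either, since part of their B41KO values lie at background. For the last of the 4, 103473, the signal was 4.62, 4.40 and 4.89 against 2.93, 3.52 and 3.68, with 2 B41KO arrays well above background.

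Measured on all 6 arrays, the largest falls after that of 103410 ran from -3.69 to -1.72. These members were picked after their values were seen. Transcript 103383 (A_52_P186262) read 8.50, 8.21 and 8.22 in B41HET and 4.78, 4.56 and 4.53 in B41KO, 12.87-fold lower. Transcript 103316 read 6.61, 6.48 and 6.52 against 4.13, 3.50 and 3.70, 6.77-fold lower. Both were well above background in every sample, yet with normexp on median signals and the offset of 50, which change together, the fold was 4.66 for 103383 and 2.15 for 103316. Transcripts 103340 and 103348 were 3.73-fold and 3.29-fold lower, at 5.73, 6.03 and 5.79 against 3.956, 3.903 and 4.001 for the former and 7.76, 7.82 and 7.65 against 6.11, 5.93 and 6.05 for the latter. With normexp these were 1.62-fold and 2.32-fold. The fall of 103410 moved less, to 12.15-fold.

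**Figure D2:**
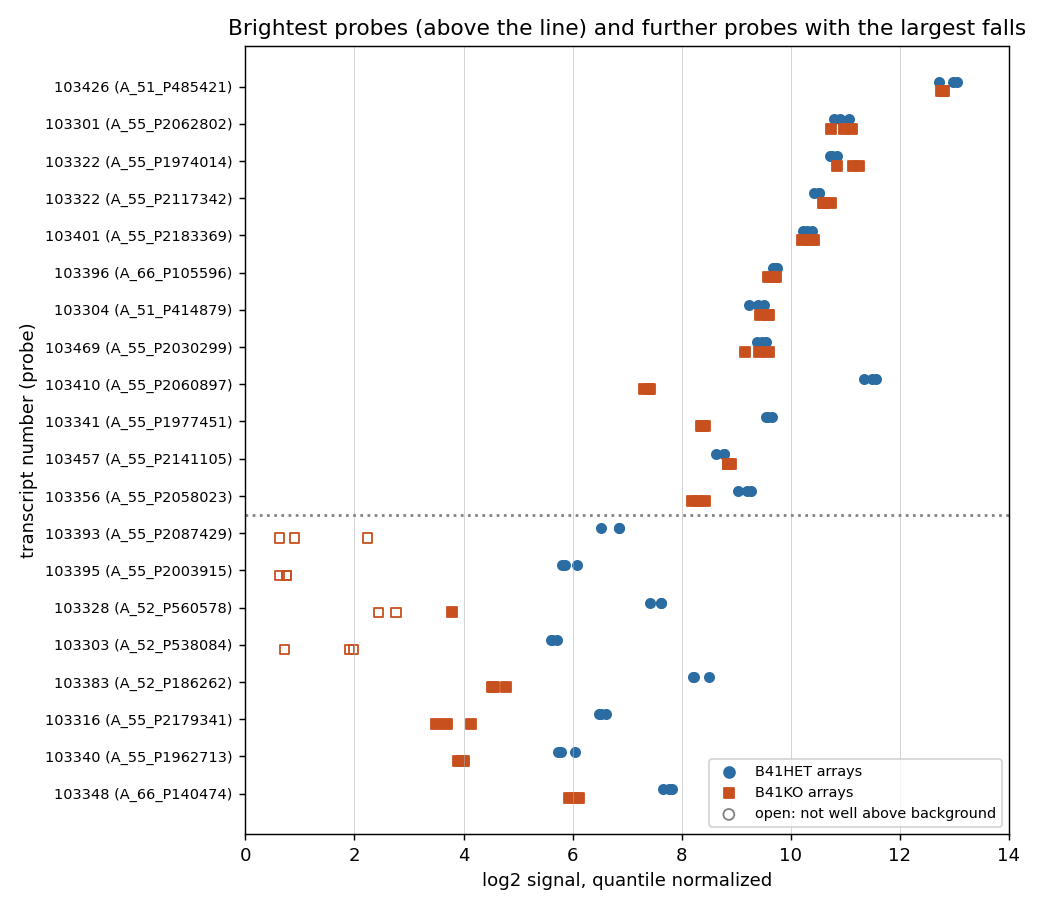
Log2 signal of the 12 brightest immunoglobulin probes (above the dotted line) and of 8 further probes with the largest falls (under it) on each B41HET (circles) and B41KO (squares) array, with open symbols for values not well above background. The genotypes overlap or nearly touch for 9 of the 12 brightest and are separated for 103410, 103341 and 103356, and for 103393, 103395 and 103303 all 3 B41KO values are open.

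Over all 36 members called lower, the differences ran from -5.49 to -0.56 with a median of -1.21, and 25 were lower by at least 1 and 11 by less. Their B41HET means ranged from 2.11 to 11.46 and their B41KO means from 0.71 to 8.38. In B41KO, 27 remained well above background on all 3 arrays, 4 on 1 or 2 arrays and 4 on none. The last of the 36, 103302, was well above background on no array of either genotype (2.20, 2.01 and 2.11 against 0.79, 1.496 and 0.72), and no fold is given for it. All 36 had separate ranges in the genotypes. B41KO replicate 1, which shared row 1 of the slide with the controls, was thereby also below all 3 B41HET arrays for them, with a median difference from the B41HET mean of -1.32, given as the value within that row and not as support.

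Within B41HET, where 35 of the 36 were well above background on all arrays, replicate 1 was the highest for 17 of the 36, replicate 2 for 11 and replicate 3 for 8. The counts depended on the number of arrays. Without B41HET replicate 2, 19 members were called lower. Row 2 of the slide held B41KO arrays only, so slide row as a block leaves B41KO replicate 1 against the 3 B41HET arrays. No count is given for that fit.

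The members fell into 2 stretches of transcript number, separated by the widest gap between members on the array, from 103426 to 103442. Of the 77 probes with lower numbers, 27 were called lower and 1 higher, with a median difference of -0.27. Of the 69 with higher numbers, 9 were called lower and 0 higher, with a median of -0.11. Array medians were 6.60, 6.67 and 6.61 in B41HET and 5.86, 5.93 and 6.05 in B41KO for the lower numbers, which did not overlap. For the higher numbers they were 4.89, 5.11 and 5.18 against 4.92, 4.99 and 5.06, which did. Which chain or locus each stretch belongs to is not stated in the files, and no test was made of the difference between them.

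Among the higher numbers, transcript 103522 read 8.37, 8.15 and 8.25 in B41HET and 7.14, 7.08 and 7.01 in B41KO, 2.26-fold lower. Transcript 103472 read 6.57, 6.46 and 6.41 against 4.91, 4.87 and 4.99, 2.94-fold lower. Transcript 103493 read 7.64, 7.70 and 7.65 against 6.61, 6.53 and 6.60, 2.12-fold lower. These were picked from the members called lower, so that their ranges lay apart is a description and no support. The remaining called members of this stretch were 103540, 103473, 103494 (1.95-fold lower), 103538 (1.65-fold), 103496 (1.64-fold on 1 of its probes) and 103552 (1.47-fold).

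Several called members of the lower numbers were neighbours in number. Between 103334 and 103365 lay 19 members, of which 12 were called lower, 1 (103336) was called higher and 6 were not called. Transcript 103335 read 6.05, 5.93 and 5.82 against 4.61, 4.47 and 5.10. Transcript 103342 read 8.55, 8.49 and 8.43 against 7.09, 7.29 and 7.51. Transcript 103345 read 7.74, 7.52 and 7.65 against 6.48, 6.49 and 6.22. Each of the 3 was between 2.29-fold and 2.36-fold lower with no overlap. Also called in this run were 103334 (1.90-fold lower), 103346 (1.55-fold), 103350 (1.89-fold), 103357 (1.65-fold) and 103365 (1.56-fold), besides 103340, 103341, 103348 and 103356. Those not called ranged from -0.70 for 103339, well above background on no array, to 0.076 for 103364. This run was noticed after the values were seen.

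**Figure D3:**
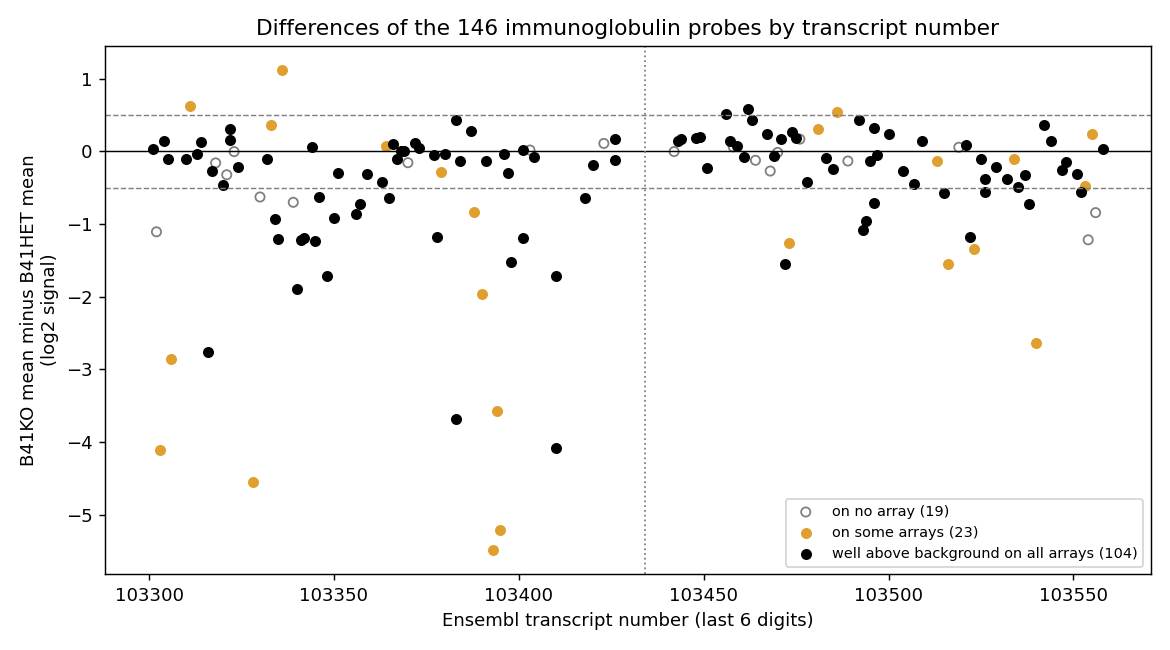
Difference between the genotypes (B41KO mean minus B41HET mean, log2 signal) for each of the 146 immunoglobulin probes by the last digits of its Ensembl transcript number, with dashed lines at the call threshold of 0.5 either way and a dotted line in the widest gap between numbers. Differences past -2 lie left of the dotted line except that of 103540, and most points in both stretches lie near 0.

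Probes on nearby transcript numbers outside the bounds are given for comparison, with no test. Over the 260 numbers before the stretch, 1 of 28 probes was called lower with a median difference of -0.006, and over the 260 after it 2 of 48 were, with a median of 0.065. Of all 8922 probes designed on Ensembl transcripts, 249 were called lower and 209 higher, with a median of 0.035. At the edges of the rule, the members 103301 and 103302 just inside differed by 0.029 and -1.11, and both probes of 103299 just outside by -0.45 and -0.18. At the far edge, 103556 and 103558 inside differed by -0.84 and 0.027, and 103564 and 103567 outside by 0.041 and 0.24. Of these, 103302, 103556 and 103564 were not well above background on any array.

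By brightness, which is the mean over all 6 arrays and so is itself lowered by a lower B41KO signal, each range held called members. With a mean signal of 9 or more, 1 of 9 probes was called lower (median difference 0.022), from 7 to 9 it was 10 of 29 (-0.25), from 5 to 7 it was 13 of 40 (-0.29), and under 5 it was 12 of 68 (-0.12). Of the 48 members with a positive difference 1 was called. It was 103336 (A_66_P114826), at 2.61, 2.87 and 3.00 in B41HET, where no array was well above background, and 3.92, 3.91 and 4.004 in B41KO, where all were, a difference of at least 2.07-fold. With normexp it differed by 0.19 and was not called. Among members well above background on all arrays of a genotype, the next largest positive differences were 0.63 for 103311, 0.58 for 103462, 0.51 for 103456 and 0.44 for 103463, none of them called. Transcript 103463 read 5.52, 5.65 and 5.41 against 6.17, 5.89 and 5.83, so that its samples did not overlap either.

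The 109 members not called ranged from -1.96 to 0.63 with a median of -0.056, and 95 of them lay within 0.5 of no difference. Of the rest, 10 differed by -0.5 or less and 4 by 0.5 or more. Most of the wide ones were dim or uneven between arrays. Transcript 103390, with the lowest of these differences, read 2.44, 5.85 and 2.22 in B41HET and 1.42, 2.34 and 0.86 in B41KO, and only B41HET replicate 2 was well above background. Transcript 103516 was well above background on all 3 B41HET arrays (3.40, 3.82 and 3.43) and on no B41KO array (2.04, 0.81 and 3.14), at least 1.56-fold lower, and was not called.

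For 7 transcripts a pair of probes was on the array, and the members of a pair did not always move alike. In 3 pairs both differences had the same sign, and in 4 they were opposite. Both probes of 103410 were lower in B41KO, by 4.08 on the log2 scale for the one shown above and, for A_55_P2727321, from 5.70, 6.30 and 6.18 to 4.08, 4.34 and 4.63, 3.28-fold. Both were called. Transcript 103383 gave the widest disagreement. Against its fall of 3.69 on A_52_P186262, the probe A_66_P130084 read 4.70, 4.90 and 4.60 in B41HET and 5.16, 4.98 and 5.35 in B41KO, a difference of 0.43 the other way with no overlap. Transcript 103401 was lower on A_52_P502849 (5.49, 5.38 and 5.42 against 4.55, 3.96 and 4.21) and level on A_55_P2183369 (10.23, 10.39 and 10.30 against 10.43, 10.35 and 10.21). For 103496 the differences were -0.71 and 0.32, for 103426 -0.12 and 0.17, for 103526 -0.56 and -0.37, and for 103322 0.31 and 0.16. A value for 1 probe is therefore not a value for the whole transcript, and which transcripts each probe bound cannot be told from these files.

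**Figure D4:**
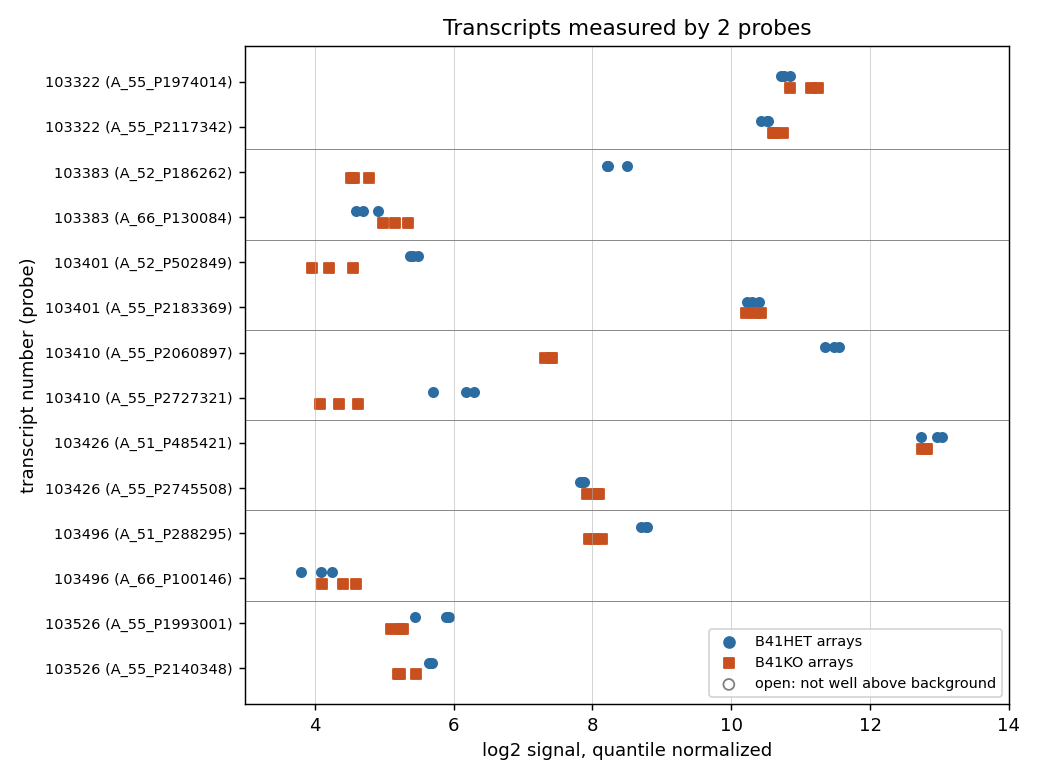
Log2 signal on each B41HET (circles) and B41KO (squares) array for the 7 transcripts measured by a pair of probes, with a line between transcripts. Both probes of 103410 shift left in B41KO, whereas for 103383, 103401 and 103496 the genotypes separate to the left on 1 probe only.

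A pair of members was printed in 10 spots on each array, which gives the error within an array. The spots of 103418 averaged 6.94, 6.93 and 7.09 in B41HET and 6.34, 6.28 and 6.40 in B41KO, with an SD between spots of 0.048 to 0.132. It differed by -0.65 between the genotypes and was among the members called lower. The SD between spots is technical and does not cover the spread between samples. The spots of 103391 averaged 7.39, 7.42 and 7.40 in B41HET and 7.12, 7.29 and 7.42 in B41KO, with an SD between spots of 0.063 to 0.116, and the genotypes overlapped.

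Genes whose products make, assemble or control immunoglobulin were not used by the rule. Of 37 such genes, read by their brightest probe, 3 were called lower (*Jchain*, *Cd79a* and *Irf4*), 1 was called higher (*Rag2*) and 33 were not called. Over the 23462 genes named on the array, 4.01% were called lower and 1.44% higher, the background against which 3 and 1 of 37 are read. The median difference over the 37 was -0.054, 26 were well above background on all 6 arrays and 6 on none. These genes were listed with results of these arrays known.

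*Jchain*, which encodes the chain that joins secreted IgM and IgA, read 3.80, 3.73 and 3.79 in B41HET and 0.67, 2.36 and 0.72 in B41KO, at least 1.82-fold lower since no B41KO array was well above background. Its B41KO values lie at background, so the fitted difference of -2.52 (limma adjusted p = 0.03824) is no measure of size, and with normexp it was -0.25. Its adjusted p by limma was 0.003951 without B41KO replicate 2 and 0.09722 to 0.1195 without any other array. *Cd79a*, a signalling chain of the B cell receptor, read 6.20, 5.98 and 6.20 against 5.25, 5.14 and 5.03, a fall of 0.99 ± 0.10 (limma SE, adjusted p = 0.009187). It was clear of background on all arrays, and its adjusted p was 0.0312 to 0.04423 when arrays were left out in turn. *Irf4*, a transcription factor of plasma cells that myeloid cells also use, read 6.85, 6.80 and 6.52 against 6.15, 5.99 and 5.77, a fall of 0.75 ± 0.14 (limma SE, adjusted p = 0.03769). That call was lost whichever array was left out (adjusted p = 0.05813 to 0.128 by limma), with differences of -0.86 to -0.66, and the other *Irf4* probe differed by -0.11. With normexp *Cd79a* differed by -0.49 and *Irf4* by -0.48, both under the threshold of 0.5, so none of the 3 was called. With slide row as a block the difference rests on B41KO replicate 1 alone. It was -0.88 for *Cd79a* and -0.58 for *Irf4*, and *Jchain* was also lower.

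In the pre-B receptor list 0 of 4 genes were called by limma, and 2 had an unadjusted p under 0.05. *Vpreb2*, part of the surrogate light chain, read 6.17, 6.46 and 6.50 in B41HET and 6.89, 6.95 and 7.27 in B41KO (difference 0.66, limma adjusted p = 0.05926), *Vpreb3* differed by -0.14 and *Igll1*, the other part, by -0.28. Among 8 genes of the B cell receptor and B cell surface, *Cd79a* alone was called. *Cd79b*, the partner chain of *Cd79a*, read 9.72, 9.42 and 9.68 against 9.71, 9.60 and 9.59 and overlapped. *Cd37*, a tetraspanin of many leukocytes, differed by -0.13 and *Cr2*, a complement receptor of B cells, by 0.23. The B cell surface gene *Ms4a1* (CD20) was well above background on no array, as were *Fcrla* and *Fcmr*.

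Among the recombination genes, *Dntt*, which adds bases at segment joints, was well above background on all arrays, at 7.29, 7.46 and 7.49 in B41HET and 7.39, 7.63 and 7.56 in B41KO. *Rag1* and *Rag2*, the recombinase subunits, were well above background on no array. The call of *Rag2* as higher was therefore made between values at background (0.64, 0.57 and 0.57 against 2.11, 1.76 and 1.57), no fold is given, and its other probe differed by -0.50. Of the 6 B lineage transcription factors 0 were called by limma, and 0 had an unadjusted p under 0.05. *Pax5*, which fixes B cell identity, differed by 0.076, *Ikzf3* by 0.17 and *Pou2af1*, a coactivator at immunoglobulin promoters, by -0.051. The widest difference in this list was that of *Ebf1*, at 3.21, 2.29 and 2.99 in B41HET and 3.01, 2.03 and 0.70 in B41KO (-0.92, limma adjusted p = 0.447), well above background on 2 B41HET arrays and on no B41KO array.

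Among the plasma cell genes, *Irf4* alone of 5 was called. *Xbp1*, which drives the secretory program and is also active in other cells, read 12.39, 12.37 and 12.35 in B41HET and 12.40, 12.49 and 12.35 in B41KO and overlapped. *Sdc1* (CD138), a surface marker of plasma cells, differed by -0.42 (limma adjusted p = 0.08795), *Prdm1* by 0.10 and *Tnfrsf17* by -0.20. In the list of 10 assembly and secretion genes *Jchain* alone was called. The chaperone *Hspa5*, which binds free heavy chains, differed by -0.34 (limma adjusted p = 0.2266), *Hsp90b1* by -0.054, *Pdia4* by 0.18 and *Mzb1* by -0.18.

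**Figure D5:**
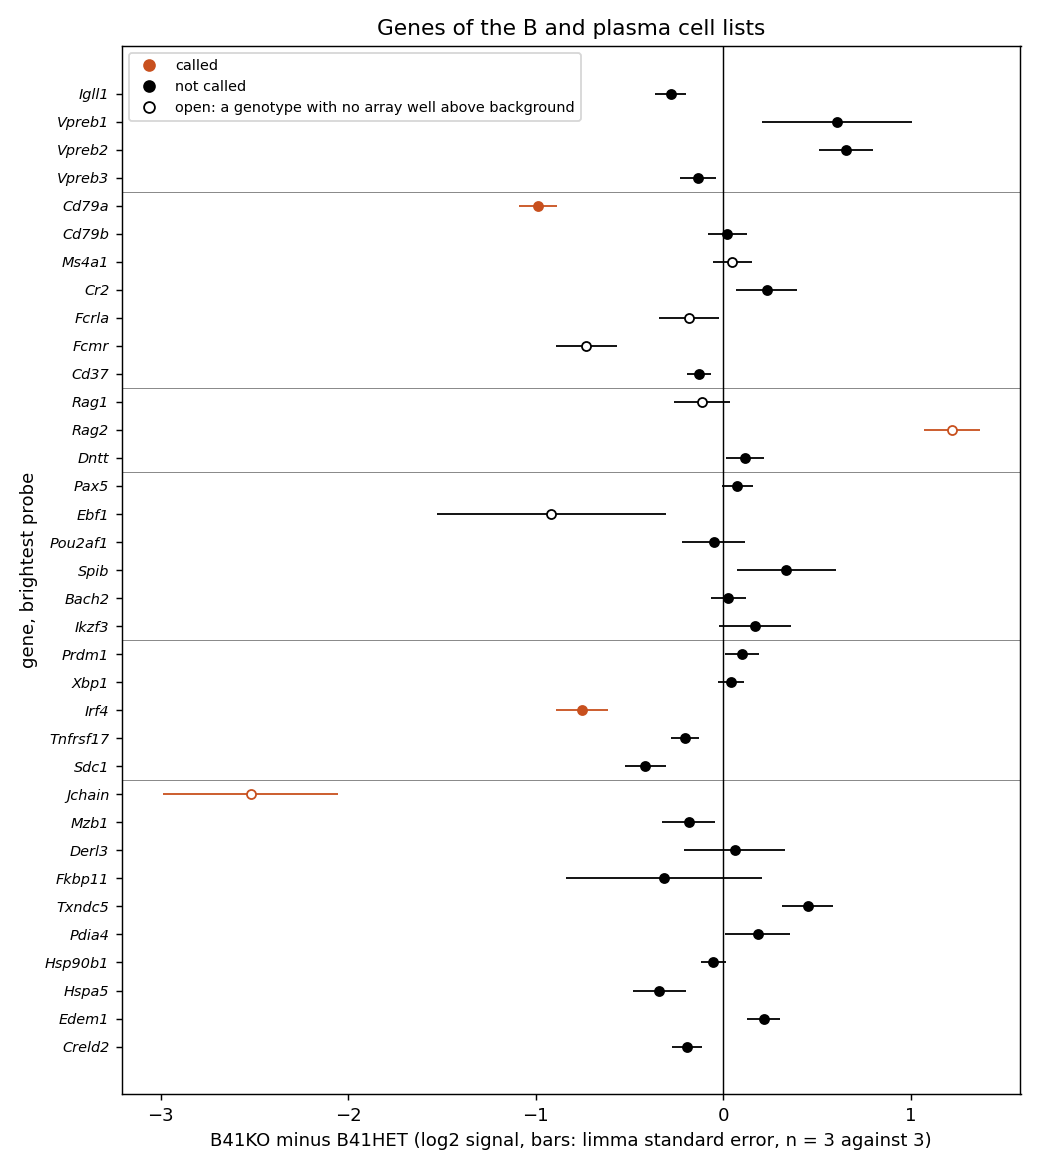
Difference between the genotypes (B41KO minus B41HET, log2 signal, with limma standard errors from 3 against 3 arrays) for 35 of the 37 genes of the B and plasma cell lists, read by their brightest probe, with lines between lists and open circles for genes with a genotype in which no array was well above background. *Cd79a* and *Irf4* are filled and lie left of 0 at -0.99 and -0.75, while *Jchain*, called lower, and *Rag2*, called higher, are open circles, whose position gives no size.

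Markers of other cells that a brain sort can hold were read on the same arrays, as the log2 of the summed signal of each list. B cell markers (1 of 8 called lower, *Cd79a*, and 2 on no array) summed to 12.01 to 12.09 in B41HET and 12.16 to 12.26 in B41KO. Plasma cell markers (1 of 6 called lower, *Jchain*) summed to 9.85 to 9.97 in B41HET and 9.65 to 9.74 in B41KO, a sum to which *Jchain* adds little and *Sdc1* (difference -0.42, not called) and *Prdm1* (0.10) most. The B cell sum rests mostly on *Cd22*, and reflects that gene more than the rest of the list. Its brightest probe read 11.39, 11.497 and 11.48 against 11.61, 11.71 and 11.76, higher on every B41KO array (0.24) and not called. The study reports CD22 as specific to microglia within the mouse CNS, and *Cd22* as higher in its B41KO microglia. Neutrophil markers moved far more, with 6 of 8 called lower (*S100a8*, *S100a9*, *Ngp*, *Ltf*, *Camp* and *Lcn2*) and sums of 14.82 to 15 against 12.51 to 12.60. *Mpo* and *Elane*, also well above background on all 6 arrays, were not called. *Mpo* was higher on every B41KO array (difference 0.385), and *Elane* differed by -0.036 and overlapped. Endothelial markers were called lower for 2 of 5 (*Pecam1* and *Ly6c1*), with sums of 10.16 to 10.29 against 8.62 to 8.80. That sum is mostly the signal of these same genes. *Cldn5*, well above background on all 6 arrays, differed by -0.13 and overlapped, and *Flt1* and *Cdh5* were well above background on no array. Dendritic cell markers were called lower for 2 of 6 (*Cd209a* and *Clec10a*, sums of 14.18 to 14.35 against 14.24 to 14.30). The dendritic sum is nearly that of *Siglech* (14.33, 14.16 and 14.16 against 14.28, 14.29 and 14.23), and in it the differences of -1.74 for *Cd209a* and -1.92 for *Clec10a* are not seen. Erythroid markers were called higher for 2 of 5, *Hbb-bt* and *Alas2*, with sums of 14.96 to 15.06 against 15.30 to 15.36. That sum is nearly that of *Hba-a1*, which differed by 0.30 and was not called. Of the T and NK cell markers 0 of 9 were called by limma, with 3 at an unadjusted p under 0.05. They summed to 10.55 to 10.59 against 10.77 to 10.86, mostly the signal of *Cd4*, which differed by 0.33. Microglia markers summed to 16.78 to 16.93 in B41HET and 16.76 to 16.86 in B41KO. The part that any of these cells had in the immunoglobulin signal was not tested.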

How the data were processed

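The authors deposited the scanner output of each of 6 arrays, made with Feature Extraction 11.5.1.1, whose intensity values are background-subtracted within the array and not normalized between arrays. They also deposited a table of log2 values with the scale unstated. Its columns shared a median of 5.106 and a 75th percentile of 7.511 and ranked the probes as the scanner output did (Spearman correlation 0.999999 to 1), and it was taken as quantile-normalized and served as an alternative.

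Of the 62976 spots of an array, 59305 were no controls and were kept, and 95 to 136 spots per array were left out there for an outlier flag. The log2 intensity was quantile normalized and averaged over the spots of a probe. Following the study's methods, limma (3.58.1, R 4.3.3, data.table version 1.17.8) compared 3 B41HET with 3 B41KO samples, with genotype as the only term and Benjamini-Hochberg adjustment over 56601 probes with at least 2 values in each genotype. No filter on dim probes was used. The number of arrays limits the precision. The model was tested on simulated data. Figures used matplotlib 3.10.9 (Python 3.11.15).

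Where no array of 1 genotype was well above background, a fold is a bound: the brighter mean against, on each array of the other genotype, the higher of the lowest signal well above background and the probe's own. Other genes were named through the accessions of a RefSeq table (GRCm38.p6), and some genes of the lists are counted but not reported by name here. The members and lists were chosen with earlier results of these data known. Members named are the 12 brightest, the 5 largest falls and the 5 largest rises among those well above background on all arrays of a genotype, those at the edges of the rule, and others described as chosen afterwards, which include all further called members named. Same-numbered samples did not deviate together (correlations of 0.131, -0.007 and 0.166 over all probes), so the numbers were not taken as pairs. Alternatives were a shift to the 75th percentile, the authors' values, normexp on median signals with an offset of 50, a filter on dim probes (well above background on 3 arrays or more kept), trend and robust variance, slide row or replicate number as a block, and each array left out in turn. All arrays lay on 1 slide.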

Additional observations from a re-analysis of the deposited data

How the results depend on the processing

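Counts of calls differed between the alternatives. Against 2867 calls over all probes, 36 members called lower, a member median of -0.14 and 3 pathway genes called lower, normexp on median signals with an offset, which change together, gave 1500 calls, 25 members, a median of -0.052 and 0 genes. Slide row as a block gave 444 calls, 16 members, a median of -0.23 and 0 genes. The cause was not tested. The replicate block, for a pairing that the samples did not show, gave 42 calls, 4 members and 0 genes. Leaving out each array in turn gave 792 to 1525 calls, 19 to 29 members (19 without B41HET replicate 2), medians of -0.209 to -0.134, 1 to 2 pathway genes and 0.204 to 0.565 for *Bhlhe41*. Between 33 and 37 members were called lower with the 75th percentile shift (33, all among the 36), the authors' values (36), the filter (37, of 124 members tested) and trend and robust variance (37). The 75th percentile shift moved the median of all probes from 0.015 to 0.126, and that of the members to -0.087. Of 325 values of 25 named members under the alternatives, 318 kept their sign, and none of the called ones among these 25 changed sign. Under normexp the limma adjusted p was 0.001211 for *Cd79a*, 0.006578 for *Irf4* and 0.01503 for *Jchain*. Their differences of -0.49, -0.48 and -0.25 were smaller in size than the 0.5 that a call needed. The differences of named members moved by more than their spread between samples for 15 with normexp, 10 with slide row as a block, and 2 each with the 75th percentile shift and the authors' values.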

Other observations

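Of the 10 probes with the lowest fitted difference over the array, an order that near background is not a measured one, 3 were no members. A_55_P2214124, whose transcript had no gene name in the table used, read 8.78, 8.95 and 8.92 (log2 signal) in B41HET and 4.53, 3.95 and 4.29 in B41KO, a difference of -4.63. A_55_P2002744, designed on an unnamed Ensembl transcript numbered outside the stretch, read 7.93, 7.71 and 7.88 against 3.46, 3.52 and 3.39, a difference of -4.38. Both were well above background on all 6 arrays. A probe of *Ahnak*, which encodes a large scaffold protein, read 4.18, 4.23 and 4.15 in B41HET and was not well above background on any B41KO array.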
